A study of Rattus norvegicus with 17 samples.

Results

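CD4+ T helper cells of rats fed no vitamin D were compared with those of rats on a regular diet, over 11 of the 17 arrays of the study. The 5 arrays of the deprived diet (0 IU of vitamin D, replicates 2 to 6) and the 6 of the regular diet (2 IU, replicates 1 to 6) were taken by their titles. No replicate 1 of the deprived diet is among the 17 arrays. The supplemented diet (10 IU, 6 arrays) is described only where named. Its arrays were nevertheless part of the main limma fit, so they shape the SE and adjusted p of every gene. They also enter the mean over 17 arrays by which rows and genes were chosen. All rats, those on the regular diet included, were age-matched female Dark Agouti (DA) rats, an inbred strain, in which experimental autoimmune encephalomyelitis had been induced with myelin oligodendrocyte glycoprotein (MOG). The diets began 5 weeks before immunization and lasted until the end, and inguinal lymph nodes were taken on day 7 for sorting of the CD4+ cells by flow cytometry, so that no group was unimmunized. The sources used here give neither the age of the rats, nor the amount of feed behind each IU, nor whether an array held 1 rat or a pool. The labels call the samples biological replicates without saying how they were kept apart, so p-values reflect only how these arrays varied.

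Vitamin D is converted to the hormone calcitriol, which binds the vitamin D receptor (Vdr), and the receptor pairs with a retinoid X receptor on DNA to change transcription. CD4+ T cells read antigen through the T cell receptor and differentiate in lymph nodes into helper subsets that are told apart by their transcription factors and cytokines. Encephalomyelitis of this kind is driven by such cells, and vitamin D is known for dampening it in rodents.

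The clearest differences under the deprived diet were higher levels of cytosolic heat shock chaperones and co-chaperones, of the lymph node retention genes Cxcr4 and Cd69, and of the glucocorticoid-inducible genes Tsc22d3 and Ddit4. None of the vitamin D receptor and target genes passed the test, and of the Th1, Th2, Th17, regulatory and follicular helper lists only Il13 (lower), Nt5e and Ccl20 (both higher) did. No call exceeded 2-fold. In bulk samples such as these, fewer cells of a type and less RNA per cell cannot be told apart. Of 10879 genes tested with limma, 182 were called at a Benjamini-Hochberg adjusted p of 0.05 (1.67%), of which 162 were higher (1.49%) and 20 lower (0.184%) in deprived than in regular arrays. The median change was 0.32 on the log2 scale among the higher genes, -0.40 among the lower and -0.0005 over all genes tested. All 5 deprived arrays lay above all 6 regular arrays for 492 genes (4.52%) and below them for 110 (1.01%).

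The number of calls rested on single arrays and on the fit. It was 46, 102, 51, 104 and 33 without deprived replicate 2, 3, 4, 5 and 6, and 79, 102, 210, 83, 68 and 42 without regular replicate 1, 2, 3, 4, 5 and 6. It was 40 (65% higher) after quantile normalization, 84 (66.7%) after cyclic loess and 68 (55.9%) with the spread of each array as a covariate, against 89% higher as reported. It was 889 (75.7% higher) with array weights and 466 (85.8%) in a fit of only the deprived and regular arrays. The median residual standard deviation of a gene was 0.13 in the fit of 3 diets and 0.114 in that of 2. 26 genes passed without each of the 17 arrays in turn, and among them were Hsph1, Dnaja1, Chordc1, Cacybp, Cxcr4, Cd69, Tsc22d3 and Ddit4.

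Higher calls lay mostly among bright genes. With the tested genes in 4 equal bins of mean level, from dim to bright, 1, 9, 43 and 109 genes were called higher and 6, 5, 6 and 3 lower, while the median change was -0.03, -0.03, 0.01 and 0.08. The spread of an array, the standard deviation (SD) of all its log2 values, moved in the same direction. It was 2.051 ± 0.017 (SD, n = 5) in deprived and 2.026 ± 0.022 (SD, n = 6) in regular arrays, a difference of 0.025 that did not pass a two-sided exact permutation test (p = 0.0693, where the design allows 0.00216). The difference passed without deprived replicate 5 (0.0311, exact p = 0.0381) and without regular replicate 1 (0.0324, exact p = 0.0238), whose spread of 2.063 was above that of 4 of the 5 deprived arrays. The part of the spread in single calls was not tested beyond the fit that holds it as a covariate.

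**Figure D1:**
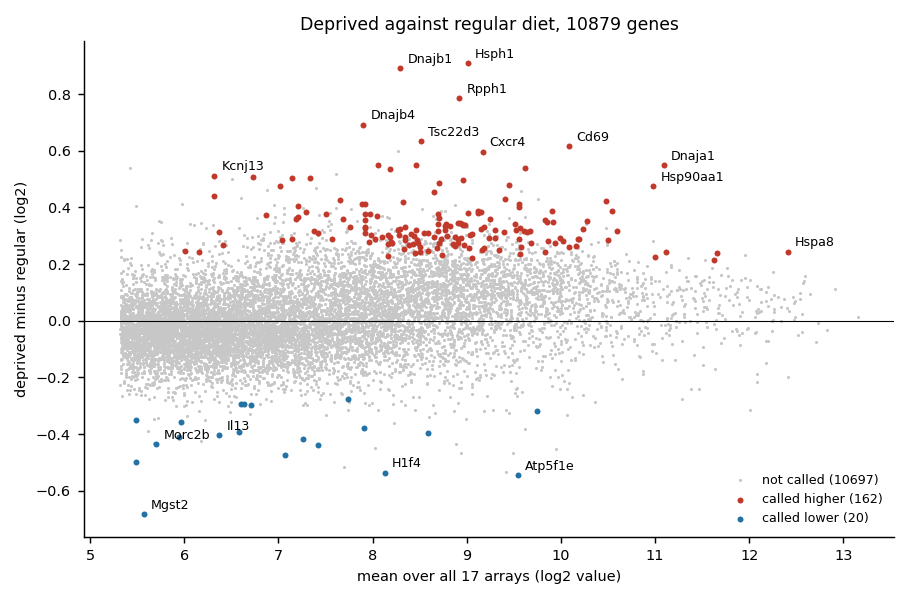
Difference of mean log2 values, deprived minus regular, against the mean over all 17 arrays, 1 point per gene for 10879 genes. The 162 genes called higher (red) crowd on the bright side, where Hsph1 and Dnajb1 reach 0.91 and 0.89, and the 20 called lower (blue) include Mgst2 at -0.68.

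Heat shock chaperones keep proteins folded: members of the Hsp70 and Hsp110 families bind unfolded stretches with the help of J-domain proteins and hand some clients on to Hsp90. Heat shock factor 1 binds as a trimer to heat shock elements, arrays of inverted GAA units, in the promoters of many of these genes. Of the 33 cytosolic chaperones, co-chaperones and regulators tested, 8 rose (Hsph1, Dnaja1, Chordc1, Stip1, Dnajb1, Dnajb4, Hsp90aa1 and Hspa8) and none fell, against 1.49% of all genes called higher. The median change of the 33 was 0.22, and 25 were above 0. All deprived arrays lay above all regular arrays for 13 of the 33, against 4.52% of all genes. The mean level of the list ran from 8.99 to 9.12 over the deprived arrays and from 8.74 to 8.89 over the regular ones. That list, the mitochondrial chaperone and CCT list, and the glucocorticoid list were the 3 of 39 lists whose deprived array means all lay above the regular ones. The lowest deprived and highest regular means were 9.640 and 9.580 for the mitochondrial and CCT list. For the glucocorticoid list they nearly touched, at 7.987 and 7.983. 4 of the 33 were called without deprived replicate 4, 5 without deprived replicate 6 and 5 without regular replicate 6, while the list's median stayed between 0.19 and 0.24 in every fit that left out a deprived or regular array. The median was 0.19 after quantile normalization, with 4 members called, and 0.17 after cyclic loess, with 5.

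The upstream sequences of chaperone genes are shown because Hsph1 and Dnajb1 were the largest rises and the family's heat shock elements can be read in such sequences. RefSeq promoter sequences on the GRCr8 build were matched for 9012 of the genes tested, 138 of the genes called higher among them. Each line holds the 250 bases before the gene's start, 5′ to 3′ on the gene's strand, and the capitals mark every 2 unit match (GAANNTTC or TTCNNGAA) and 3 unit match (GAA, TTC and GAA, or TTC, GAA and TTC, with 2 bases of any kind between neighbours). The 2 patterns of each kind cover both strands, and a 3 unit match contains 2 unit matches. Hsph1 lies at chr12:10427118-10427367 on the plus strand, Hspa8 at chr8:50080264-50080513 on the plus strand, Hspd1 at chr9:64084038-64084287 on the minus strand and Dnajb1 at chr19:41431142-41431391 on the minus strand.
Hsph1: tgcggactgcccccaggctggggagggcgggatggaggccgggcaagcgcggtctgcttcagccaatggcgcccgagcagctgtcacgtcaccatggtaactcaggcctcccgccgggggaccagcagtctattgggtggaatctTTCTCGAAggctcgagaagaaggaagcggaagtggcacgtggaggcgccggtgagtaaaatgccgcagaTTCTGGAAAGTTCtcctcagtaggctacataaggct
Hspa8: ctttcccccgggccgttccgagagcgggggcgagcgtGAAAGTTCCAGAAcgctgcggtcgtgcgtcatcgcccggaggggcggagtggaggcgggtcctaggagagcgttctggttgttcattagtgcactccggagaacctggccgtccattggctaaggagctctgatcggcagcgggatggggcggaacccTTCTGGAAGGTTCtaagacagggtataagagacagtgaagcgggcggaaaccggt
Hspd1: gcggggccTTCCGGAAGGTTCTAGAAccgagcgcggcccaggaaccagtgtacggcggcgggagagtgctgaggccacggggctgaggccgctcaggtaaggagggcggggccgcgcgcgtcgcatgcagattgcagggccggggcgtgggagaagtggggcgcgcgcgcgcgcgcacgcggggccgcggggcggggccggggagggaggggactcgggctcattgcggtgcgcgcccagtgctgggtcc
Dnajb1: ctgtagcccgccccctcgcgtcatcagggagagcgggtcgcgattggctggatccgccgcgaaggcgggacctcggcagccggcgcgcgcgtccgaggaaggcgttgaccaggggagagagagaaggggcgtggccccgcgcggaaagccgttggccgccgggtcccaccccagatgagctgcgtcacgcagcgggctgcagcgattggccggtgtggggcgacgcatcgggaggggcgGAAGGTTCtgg

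Hsph1 held 1 upstream 3 unit match, Hspa8 and Hspd1 held 2 each, and Dnajb1 held a 2 unit match only. In 4 more genes called higher the 3 unit match touched or followed the start: Dnaja1 (chr5:60638410-60638428, plus strand), Chordc1 (chr8:23650828-23650856, plus strand), Hnrnpa2b1 (chr4:81875872-81875890, minus strand) and Cct4 (chr14:101193079-101193097, plus strand). These are shown as the matched bases in capitals with 3 bases on either side.
Dnaja1: gcgGAACTTTCCAGAAcgc
Chordc1: ccgGAACGTTCGGGAAGATTCCTGAAgca
Hnrnpa2b1: gggGAAGGTTCTAGAAaag
Cct4: gctTTCTGGAAGGTTCgtg

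Over the 300 bases of the promoter table, 50 of them past the start, 41 of the 9012 genes (0.455%) held a 3 unit match. Among the genes called higher they were 7 of 138 (5.07%): Hsph1, Dnaja1, Chordc1, Hspa8, Hspd1, Hnrnpa2b1 and Cct4. Among the cytosolic chaperones they were 4 of 27 (14.8%), namely Hsph1, Dnaja1, Chordc1 and Hspa8, which are also among those 7. The shares thus overlap, and they were not tested against that of all genes. With the bases upstream of the start only, the shares were 0.377% of all genes and 3 of 138 (2.17%). Read from the side of the motif, 7 of the 41 genes were called higher (17.1%), their median change was 0.007, and 24 of them were above 0. Hspe1, which starts on the opposite strand beside Hspd1, was at 0.12 (adjusted p = 0.278, limma). The 2 unit letters were in 11.9% of all promoters, in 15.2% of those of genes called higher and in 44.4% of those of the chaperones. A match is a description of letters and not a site.

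Hsph1, an Hsp110 that acts as nucleotide exchange factor for Hsp70, showed the largest rise. Its log2 values were 9.47, 9.53, 9.93, 10.10 and 9.56 in deprived replicates 2 to 6, and 8.68 (lowest), 8.75 (median) and 9.03 (highest) in the regular arrays. The groups did not overlap, and deprived replicates 4 and 5 were the highest. The change was 0.91 (SE 0.11, 1.88-fold, adjusted p = 0.000124). Hspa8, the constitutive Hsp70, measured 12.52, 12.49, 12.61, 12.69 and 12.57 in the deprived arrays and 12.28 (lowest), 12.32 (median) and 12.42 (highest) in the regular ones. The groups did not overlap here either, though the rise was only 0.24 (SE 0.06, adjusted p = 0.0338). The call did not pass without deprived replicate 2, 4, 5 or 6 or regular replicate 1, 2, 4 or 6 (adjusted p from 0.06 to 0.0905), nor after quantile normalization (0.128) or cyclic loess (0.139) or with the array spread as covariate (0.0738). The array holds 8 rows for Hspa8, and their changes ran from 0.24 to 0.31. Hspa8 has near-identical copies in the genome, whose signal its probes may share.

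The J-domain proteins deliver clients to Hsp70 and trigger its ATPase. Dnaja1 measured 11.61, 11.54, 11.65, 11.66 and 11.55 in deprived replicates 2 to 6 and 10.95 (lowest), 11.05 (median) and 11.17 (highest) in the regular arrays, a tight shift of 0.55 (SE 0.07, adjusted p = 0.000411). Dnajb1, which assists Hsp70 in the heat shock response, measured 9.03, 9.02, 9.39, 9.57 and 8.59, against 8.09 (lowest), 8.21 (median) and 8.50 (highest). Its rise was 0.89 (SE 0.18, adjusted p = 0.0167). Deprived replicate 6 lay just above the highest regular array, and without deprived replicate 4 the call was lost (adjusted p = 0.0528). It was also lost after quantile normalization (0.0608) and with the array spread as covariate (0.0697). Dnajb4 measured 8.12, 8.16, 9.02, 9.21 and 8.23, against 7.67 (lowest), 7.87 (median) and 7.98 (highest), a rise of 0.69 (SE 0.15, adjusted p = 0.0248). Deprived replicates 4 and 5 stood well above the other three. The call was lost without deprived replicate 4 (0.0696) or regular replicate 5 (0.0519) or 6 (0.0711), and after quantile normalization (0.0696) or cyclic loess (0.0503).

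Those 2 arrays were also the high ones for Jun, an immediate early transcription factor subunit. Jun measured 8.59, 8.79, 9.79, 9.86 and 8.66 in the deprived arrays and 8.13 (lowest), 8.58 (median) and 8.90 (highest) in the regular ones. The groups overlapped, and the difference of 0.60 (SE 0.30) did not pass (adjusted p = 0.313). Fos was highest in the same 2 arrays, at 8.17 and 7.81 in deprived replicates 4 and 5 and from 7.00 to 7.29 in the other three, with a difference of 0.18 (adjusted p = 0.736). Deprived replicates 4 and 5 were also the 2 highest deprived arrays for Hsph1, Hspa8, Hsp90aa1 and, by a small margin, Dnaja1, but not for Stip1. What sets these arrays apart was not tested.

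Hsp90 matures kinases and steroid receptors and works with its own co-chaperones. Hsp90aa1, the inducible Hsp90, measured 11.35, 11.46, 11.57, 11.61 and 11.36 in the deprived arrays and 10.91 (lowest), 10.97 (median) and 11.15 (highest) in the regular ones. It rose by 0.48 (SE 0.10, adjusted p = 0.0255), without overlap, and the call was lost without deprived replicate 4, 5 or 6 or regular replicate 1, 5 or 6 (0.0518 to 0.0711). It was also lost after quantile normalization (0.0543) or cyclic loess (0.0562) and with the array spread as covariate (0.0846). Stip1, which bridges Hsp70 and Hsp90, measured 9.93, 10.03, 10.09, 10.32 and 10.28, against 9.35 (lowest), 9.60 (median) and 9.78 (highest). It rose by 0.54 (SE 0.11, adjusted p = 0.0163), and the call was lost without deprived replicate 6 (0.0606) or with the array spread as covariate (0.0663). Chordc1, an Hsp90-binding protein, was 10.70 to 10.94 in the deprived arrays and 10.35 to 10.46 in the regular ones, a rise of 0.42 (SE 0.06, adjusted p = 0.000863) that passed with any array left out. Cacybp, the calcyclin-binding protein, is in none of the lists and rose by 0.48 (SE 0.06, adjusted p = 0.000411), from 9.33 to 9.50 in regular to 9.74 to 10.04 in deprived arrays.

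The regulators of the response did not pass. Hsf1, heat shock factor 1, was at -0.05 (adjusted p = 0.851) and Bag3, a heat-inducible Hsp70 co-chaperone, at -0.04 (adjusted p = 0.751). Hsf2, a relative of Hsf1, and Ahsa2, an Hsp90 ATPase activator, just missed the threshold, at 0.43 (adjusted p = 0.0522) and 0.39 (adjusted p = 0.0532). Both were picked out after their values were seen. Hspa1b, the inducible Hsp70 gene, has no row with its symbol alone and was not tested. Cirbp and Rbm3, RNA-binding proteins that are induced by mild cold, were at -0.27 (adjusted p = 0.17) and -0.06 (adjusted p = 0.766).

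Mitochondrial chaperones and CCT, and those of the endoplasmic reticulum, were listed apart. Of 16 mitochondrial chaperones and subunits of CCT, the ring that folds actin and tubulin, 3 rose: the mitochondrial Hsp60 gene Hspd1 (0.32, adjusted p = 0.0368) and the CCT subunits Cct8 (0.35, 0.0392) and Cct4 (0.24, 0.0448). Over all genes 1.49% were called higher. The list's median change was 0.17, against 0.11 after quantile normalization or with the array spread as covariate. Of the 16, 15 were above 0, and for 8 all deprived arrays lay above all regular ones, against 4.52% of all genes. None of the 3 calls survived quantile normalization, cyclic loess, the array spread as covariate, or the loss of deprived replicate 2, 3, 4, 5 or 6 or regular replicate 1, 4, 5 or 6, and 1 was left without regular replicate 2. Adjusted p then reached 0.0999 for Hspd1, 0.111 for Cct8 and 0.121 for Cct4 with an array left out. Of 23 genes of the endoplasmic reticulum folding and unfolded protein response list, only Ero1a, the oxidase that renews disulfide isomerases, rose (0.33, adjusted p = 0.0367), with a median of 0.14 for the list. The median was 0.08 after quantile normalization, cyclic loess or with the array spread as covariate, and Ero1a did not pass there (0.0957, 0.0644 and 0.125). That call was also lost without deprived replicate 2, 3, 4 or 6 or regular replicate 1, 4, 5 or 6 (0.0501 to 0.12). None of the 17 genes of the Atf4 stress response list passed, and their median of 0.02 turned to -0.07 with the array spread as covariate.

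**Figure D2:**
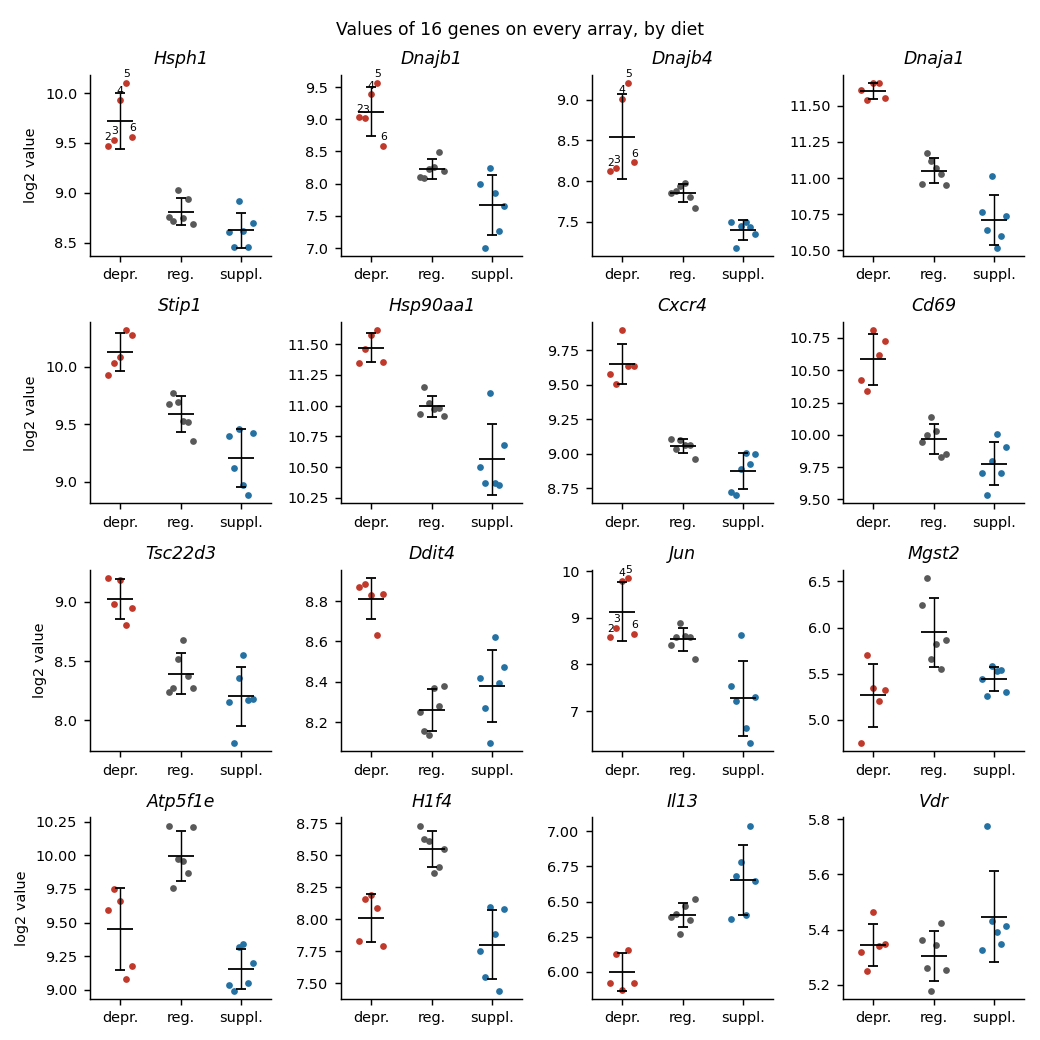
Log2 values of 16 genes on every array of the deprived (depr., n = 5), regular (reg., n = 6) and supplemented (suppl., n = 6) diets. Points are arrays, bars are mean and SD, and the numbers beside the deprived points of 4 genes are replicate numbers: replicates 4 and 5 are the highest for Hsph1, Dnajb1, Dnajb4 and Jun, while the deprived arrays of Dnaja1 run only from 11.54 to 11.66. Each panel has its own axis, which does not start at 0.

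Cxcr4, the receptor for Cxcl12 that keeps lymphocytes in lymphoid tissue, and Cd69, an early activation antigen that pulls the egress receptor S1pr1 off the surface, rose in all 5 deprived arrays. Cxcr4 measured 9.58, 9.51, 9.90, 9.64 and 9.64 in deprived replicates 2 to 6 and 8.96 (lowest), 9.06 (median) and 9.11 (highest) in the regular arrays. The change was 0.60 (SE 0.07, adjusted p = 0.000124). Cd69 measured 10.43, 10.34, 10.81, 10.62 and 10.73, against 9.83 (lowest), 9.97 (median) and 10.14 (highest), a change of 0.62 (SE 0.09, adjusted p = 0.00102). Neither gene overlapped between the diets, and both calls held with any array left out. Over all genes, 4.52% had all deprived arrays above all regular ones. Of 31 trafficking genes 3 rose, against 1.49% of all genes. The third was Ccl20, the ligand of Ccr6 (0.25, adjusted p = 0.0495). It was lost without any 1 of the 11 deprived and regular arrays and without supplemented replicate 6 (0.0517 to 0.132), and the ranges of the diets touched at 5.95. The chemokine receptor Cxcr6 (0.38, adjusted p = 0.0573) and S1pr1 (-0.29, adjusted p = 0.121) did not pass, and the median of the list was 0.03.

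Tsc22d3 (Gilz) and Ddit4 (Redd1) are induced by glucocorticoids and by FoxO factors and restrain activation and mTOR signalling. Tsc22d3 measured 9.20, 8.99, 9.19, 8.80 and 8.95 in deprived replicates 2 to 6 and 8.24 (lowest), 8.33 (median) and 8.68 (highest) in the regular arrays. It rose by 0.63 (SE 0.11, adjusted p = 0.00505). Ddit4 measured 8.87, 8.89, 8.83, 8.63 and 8.84, against 8.13 (lowest), 8.26 (median) and 8.38 (highest), a rise of 0.55 (SE 0.08, adjusted p = 0.000988). In both genes the lowest deprived array was above the highest regular one, and both calls held with any array left out. Of 28 genes of the glucocorticoid list, 5 rose (against 1.49% of all genes) and none fell. The median of the list was 0.16, against 0.10 and 0.11 after quantile normalization and cyclic loess, 0.08 with the array spread as covariate, 0.10 without deprived replicate 4 and 0.10 without deprived replicate 5. Besides Tsc22d3 and Ddit4, the genes that rose were Cxcr4, Zfp36l2, an RNA-binding protein that promotes quiescence (0.33, adjusted p = 0.0248), and the interleukin 7 receptor Il7r (0.24, adjusted p = 0.0491). Zfp36l2 was lost without deprived replicate 2, 4 or 6 or regular replicate 1 (0.0506 to 0.0713), and Il7r without any of the 11 deprived and regular arrays or supplemented replicate 4 or 6 (0.0532 to 0.159). Both were also lost after quantile normalization, after cyclic loess and with the array spread as covariate, where the other three passed.

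Well-known targets of the glucocorticoid receptor outside these 5 did not pass. Fkbp5 was at 0.16 (adjusted p = 0.519), Per1 at 0.16 (adjusted p = 0.439), and the receptor Nr3c1 at 0.16 (adjusted p = 0.265). Of 24 genes of the FoxO and mTOR restraint list, 4 rose, against 1.49% of all genes: Ddit4, Tsc22d3, Il7r and Ccng2, an atypical cyclin (0.32, adjusted p = 0.0437), which was lost without any of the 11 deprived and regular arrays (0.053 to 0.121). The median of that list was 0.02 and turned to -0.01 after quantile normalization or cyclic loess. The letters ACANNNTGT, a glucocorticoid response element read alike on both strands, were in 4.46% of all promoters and in 2 of 138 (1.45%) of those of genes called higher, of Tsc22d3 and Lrpprc. The vitamin D element letters, AGGTCA or AGTTCA repeated after a gap of 3 bases, on either strand, were in 0 of the 9012 windows. With no match in any gene, these strict letters cannot tell the called genes from the others.

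None of the vitamin D genes passed. Vdr measured 5.32, 5.25, 5.46, 5.34 and 5.35 in the deprived arrays and 5.18 (lowest), 5.30 (median) and 5.42 (highest) in the regular ones, near the floor of the genes tested at 5.321. The groups overlapped, and the difference of 0.04 had an interval from -0.11 to 0.19 (adjusted p = 0.841). Cyp27b1, which makes calcitriol, was at -0.01 (adjusted p = 0.952) and the partner receptor Rxra at -0.04 (adjusted p = 0.859). Cyp24a1, which degrades calcitriol and is a classical target, lay below the level filter, at 4.713 ± 0.138 (SD, n = 5) in deprived and 4.669 ± 0.076 (SD, n = 6) in regular arrays. None of the 26 tested genes of the receptor, metabolism and target list passed, the largest being the cell cycle inhibitor Cdkn1a (-0.22, adjusted p = 0.265) and the uptake receptor Lrp2 (0.18, adjusted p = 0.154). Their median was 0.01, and it turned to -0.02 after quantile normalization or cyclic loess and to -0.01 with the array spread as covariate.

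The helper T cell genes are described next. The 7 tested markers that define CD4+ T cells were high in every array, with array means from 10.61 to 10.82 in the deprived and 10.64 to 10.84 in the regular diet. Cd4 was at -0.01 (interval -0.24 to 0.23, adjusted p = 0.986) and Cd3e at -0.06 (adjusted p = 0.771). None of the 39 T cell receptor signalling genes passed. Their median of 0.01 turned to -0.05 after quantile normalization or cyclic loess.

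The lineage factors did not pass: Tbx21 (T-bet, Th1) was at 0.02 (interval -0.15 to 0.18), Gata3 (Th2) at -0.13 (-0.32 to 0.07), Foxp3 (regulatory T cells) at -0.02 (-0.23 to 0.18) and Bcl6 (follicular helper cells) at 0.11 (-0.06 to 0.29). Of the cytokines, Il17a was at 0.06 (adjusted p = 0.835), Ifng at -0.07 (adjusted p = 0.84) and Il2 at -0.02 (adjusted p = 0.952). Il10, Il4 and Csf2 lay below the filter.

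Il13, a Th2 cytokine, was the exception among 12 Th2 genes. It measured 5.92, 6.13, 5.87, 6.16 and 5.92 in deprived replicates 2 to 6 and 6.27 (lowest), 6.40 (median) and 6.51 (highest) in the regular arrays. The groups did not overlap, and Il13 fell by 0.40 on the log2 scale (SE 0.09, adjusted p = 0.0335). The call was lost without deprived replicate 2, 4 or 6 or regular replicate 1, 2, 4, 5 or 6 (0.0581 to 0.099), after quantile normalization (0.0878) and cyclic loess (0.0551), and with the array spread as covariate (0.126).

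Among 21 regulatory T cell genes only Nt5e (CD73), an ectoenzyme that makes adenosine, rose, from 7.44 to 7.62 in the regular to 7.67 to 7.93 in the deprived arrays (0.29, adjusted p = 0.0224). It was lost without deprived replicate 2, 4 or 6 or regular replicate 6 (0.0561 to 0.0724), after quantile normalization (0.0543) and with the array spread as covariate (0.0544). Of 15 Th17 genes only Ccl20 passed, of 17 Th1 and 16 follicular helper genes none. In the naive and quiescent list of 22, 2 rose, against 1.49% of all genes: Il7r and Tob1, an antiproliferative factor of resting T cells (0.41, adjusted p = 0.0368). The median of the list was -0.01. It was -0.05 after quantile normalization and -0.07 after cyclic loess or with the array spread as covariate. In these fits 0 members were called higher, and 1 was called lower in each of the last 2. Tob1 was lost without deprived replicate 2, 3, 4 or 5 or regular replicate 1, 2, 4, 5 or 6 (0.0563 to 0.109). None of 45 cell cycle, 33 interferon response, 25 glycolysis, 21 cholesterol synthesis or 67 ribosomal protein genes passed.

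**Figure D3:**
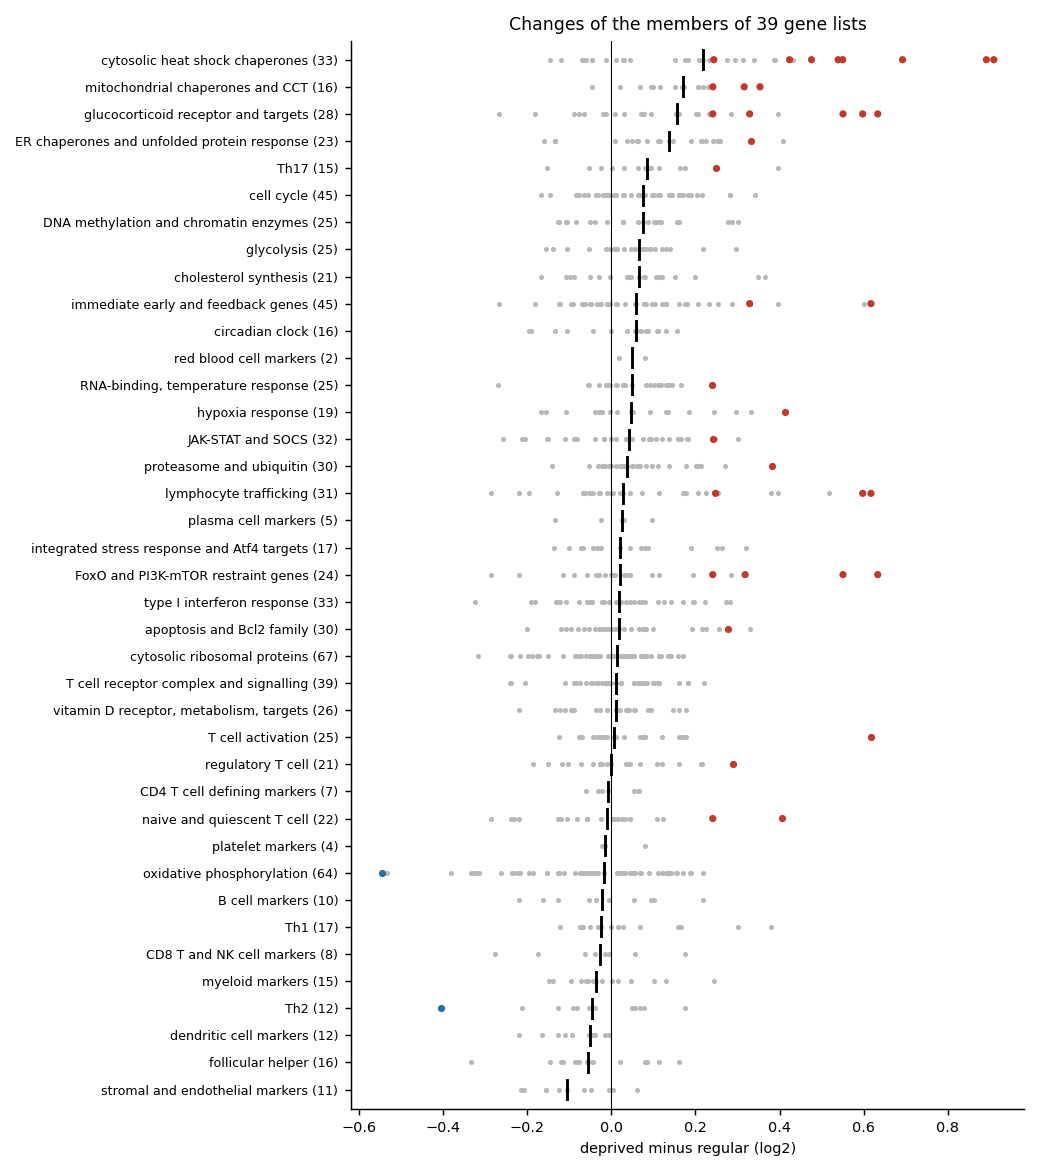
Changes (deprived minus regular, log2) of the tested members of 39 gene lists, with the number tested in brackets. Grey points did not pass, red were called higher, blue lower, and black ticks are list medians, which run from -0.11 (stromal and endothelial markers) to 0.22 (cytosolic heat shock chaperones).

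No marker of B cells, plasma cells, myeloid or dendritic cells, CD8 T and NK cells, stroma, red blood cells or platelets passed, over 8 lists. Array means of the 10 B cell markers ran from 5.96 to 6.10 in the deprived and 5.87 to 6.15 in the regular diet, and those of the 15 myeloid markers from 6.05 to 6.23 and 6.12 to 6.22. The mean of the 11 stromal and endothelial markers was lower in every deprived array (6.59 to 6.65) than in every regular array (6.69 to 6.73). No single marker was, 2 of the 11 changes were above 0, and no member was called. The median change was -0.11, against -0.08 after quantile normalization and -0.03 with the array spread as covariate. The array means are levels of mixed probes and include dim markers. With the B cell or the myeloid mean as a covariate, 190 and 147 genes were called.

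None of the 39 lists held more than 1 of the 20 genes that fell. Mgst2, a microsomal glutathione transferase, measured 4.75, 5.71, 5.35, 5.20 and 5.32 in deprived replicates 2 to 6 and 5.55 (lowest), 5.85 (median) and 6.54 (highest) in the regular arrays. In deprived replicates 2, 5 and 6 it lay near or below the floor of the genes tested at 5.321. It fell by 0.68 on the log2 scale (SE 0.15, adjusted p = 0.0257), the groups overlapped, and the call was lost without deprived replicate 2, 4, 5 or 6 or regular replicate 1 or 6 (0.0511 to 0.0755), as it was after quantile normalization, after cyclic loess and with the array spread as covariate (0.0544 to 0.0707). Atp5f1e, the epsilon subunit of ATP synthase, measured 9.59, 9.75, 9.66, 9.08 and 9.18, against 9.76 (lowest), 9.97 (median) and 10.22 (highest). It fell by 0.55 (SE 0.11, adjusted p = 0.0185), and the call was lost without deprived replicate 6 (0.0768) or regular replicate 6 (0.0621). The lower deprived arrays were replicates 5 and 6. Atp5f1e was the only call among 64 respiratory chain and ATP synthase genes, whose median was -0.02. It was -0.07 after quantile normalization or cyclic loess and -0.10 with the array spread as covariate, and turned to 0.01 after median centring. The first 2 fits called 2 members each, the spread covariate 3 and the fit of 2 diets 4, all lower. With the spread as covariate in the fit of 2 diets, chosen after seeing the data, 11 were called, all lower. Array weights gave 5 lower and 2 higher, and the ordinary linear model 0 calls. Cox7a2 (-0.38, adjusted p = 0.0532) and Cox7b (-0.33, adjusted p = 0.0919), small subunits of cytochrome c oxidase, did not pass.

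H1f4, a linker histone, measured 7.83, 8.16, 8.19, 8.09 and 7.79 in the deprived and 8.36 (lowest), 8.58 (median) and 8.73 (highest) in the regular arrays. It fell by 0.54 (SE 0.11, adjusted p = 0.0181), without overlap, and the call was lost without deprived replicate 2 (0.0601) or 6 (0.0698). Hist3h2ba, a core histone gene, fell by 0.47 (adjusted p = 0.0392), and was lost without deprived replicate 2, 3, 4 or 6 or regular replicate 1, 2, 4, 5 or 6 (0.0612 to 0.122). Morc2b, of the MORC ATPase family, fell by 0.44 (SE 0.07, adjusted p = 0.00513), and Ubox5, a ubiquitin ligase, by 0.38 (SE 0.08, adjusted p = 0.0167). Timm10b, of the mitochondrial inner membrane import machinery, fell by 0.35 (SE 0.07, adjusted p = 0.0148), at a mean level of 5.49 near the floor of 5.321. These 3 were the falls that passed with any array left out. The remaining falls ran from -0.50 (Spryd4) to -0.28 (Trappc6a) and included Rarres2, which encodes chemerin (-0.36), the general transcription factor subunit Gtf2a1 (-0.32), Zfp39, Prp15, Lst1, Ppp1r14d, Nudt6, Get1 and the olfactory receptor genes Or4p19 and Or1f28. Each of these 12 calls was lost without at least 1 array.

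Among the other large rises, Nck1, an adaptor between the T cell receptor and actin, measured 8.57, 8.56, 8.73, 8.60 and 8.62 in deprived replicates 2 to 6 and 7.76 (lowest), 8.09 (median) and 8.36 (highest) in the regular arrays. It rose by 0.55 (SE 0.10, adjusted p = 0.00962). Edrf1, a regulator of erythroid differentiation, rose by 0.54 (SE 0.06, adjusted p = 0.000124), from 7.88 to 8.20 in the regular to 8.50 to 8.67 in the deprived arrays. Med14, a core subunit of Mediator, rose by 0.49 (SE 0.08, adjusted p = 0.00505) and C8h3orf62 by 0.50 (SE 0.08, adjusted p = 0.0014). All 4 passed with any array left out. Cd200r1, an inhibitory receptor, rose by 0.51 (adjusted p = 0.0185), overlapped between the diets at 6.70 to 6.76, and was lost without deprived replicate 4 (0.0664) or 6 (0.0751) or with the array spread as covariate (0.0596). Rpph1, the RNA of ribonuclease P, rose by 0.79 (SE 0.19, adjusted p = 0.0415), overlapped, and was lost without any of the 5 deprived arrays or regular replicate 1, 3, 4, 5 or 6 (0.0511 to 0.131). Nsmce3, a subunit of the SMC5/6 complex, rose by 0.50, the potassium channel gene Kcnj13 by 0.51 and N5 by 0.50. Their calls were lost without 9, 6 and 3 of the arrays, deprived replicates 2, 4 and 6 among them for each gene.

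The regular arrays also serve as the controls of the supplemented diet, so the changes of both diets share them, and their values are given side by side with no test between them. In supplemented minus regular, 10.8% of all genes were called higher and 22.9% lower. Of the 162 genes higher in the deprived diet, 56 were called lower there, 27 higher and 79 not. Among the chaperones the supplemented changes were -0.34 for Dnaja1 (adjusted p = 0.000921), -0.56 for Dnajb1 (0.0149), -0.46 for Dnajb4 (0.0179), -0.38 for Stip1 (0.00641) and -0.43 for Hsp90aa1 (0.00206). Hsph1 (-0.19, adjusted p = 0.153), Chordc1 (-0.09, 0.211) and Hspa8 (0.02, 0.807) did not pass there. Falls under the supplemented diet were not particular to the chaperones, of which 20 of 33 were called lower. So were 28 of 30 proteasome and ubiquitin, 54 of 64 respiratory chain and ATP synthase, and 57 of 67 ribosomal protein genes. Every supplemented array had a smaller spread (1.908 to 1.972) than every regular array (2.001 to 2.063). The part of the spread in these falls was not tested.

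For the other leading rises the supplemented changes were -0.18 for Cxcr4 (adjusted p = 0.0481), -0.19 for Cd69 (0.0926), -0.19 for Tsc22d3 (0.153) and 0.12 for Ddit4 (0.23). Kcnj13 (0.61, adjusted p = 0.000178) and C8h3orf62 (0.30, 0.00344) were higher than in the regular diet under both other diets. Of the 20 falls, 5 were called lower, 5 higher and 10 not called in the supplemented diet. Atp5f1e (-0.84), H1f4 (-0.75) and Mgst2 (-0.50) were lower under both diets, while Il13 was higher under the supplemented one (0.25, adjusted p = 0.0361).

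**Figure D4:**
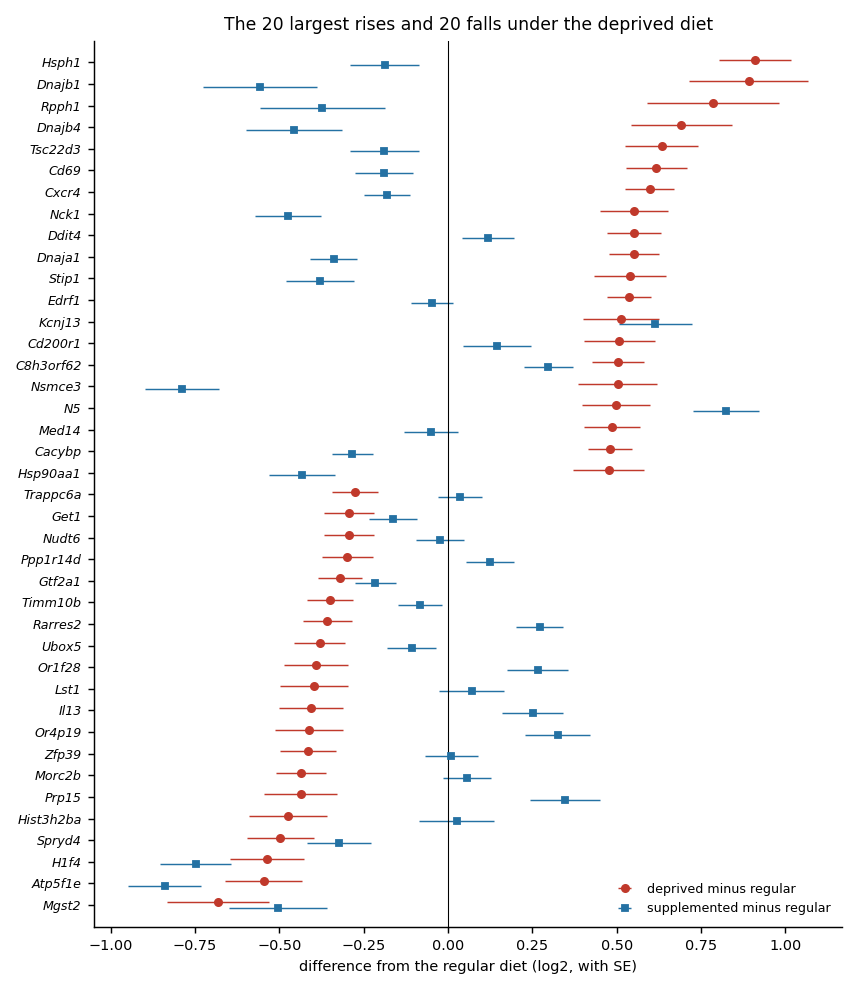
Difference from the regular diet on the log2 scale, with SE, for the 20 largest rises and the 20 falls of the deprived diet (red circles), beside the supplemented diet (blue squares). Both differences use the same 6 regular arrays. Hsph1 is at 0.91 and -0.19, Dnajb1 at 0.89 and -0.56, and Atp5f1e at -0.55 and -0.84.

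**Figure D5:**
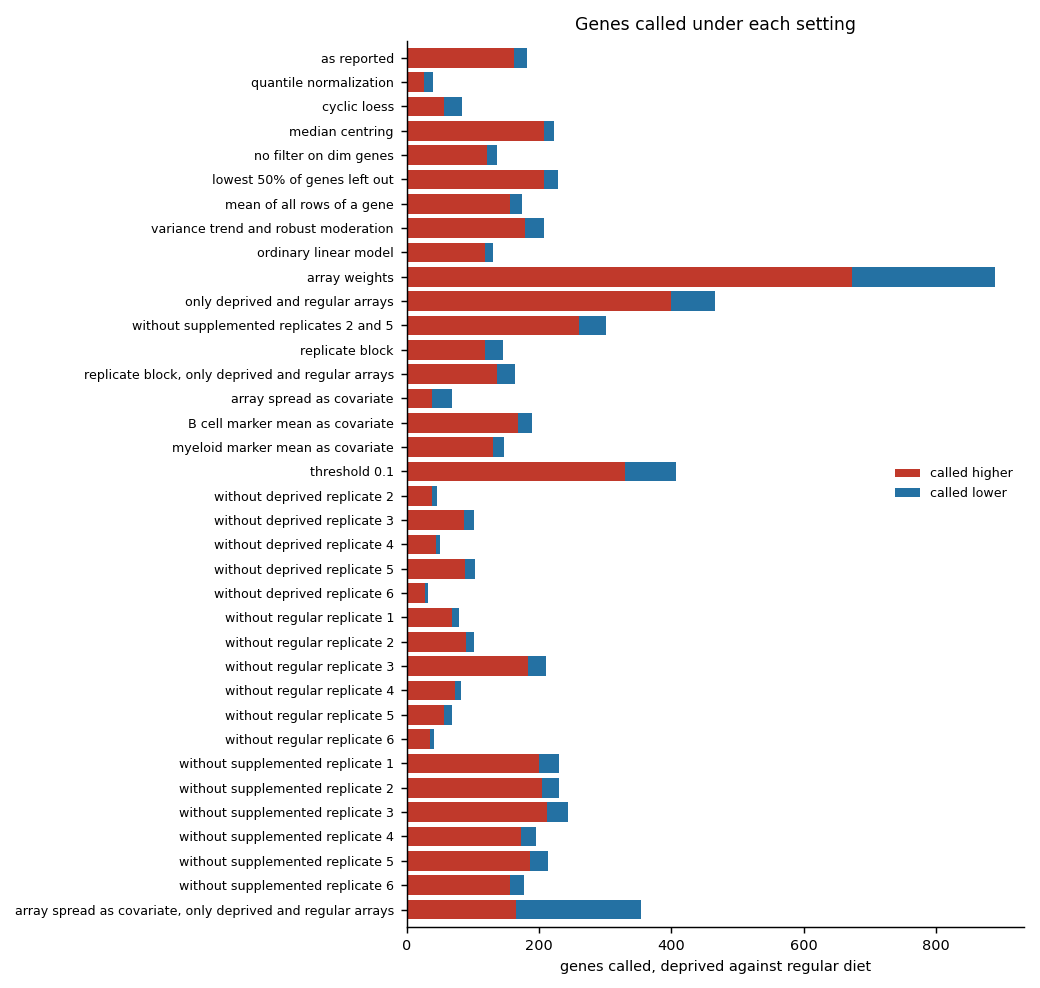
Number of genes called higher (red) and lower (blue), deprived against regular diet, as reported and under each other setting, with bars that start at 0. The counts run from 33 without deprived replicate 6 to 889 with array weights, and higher calls outnumber lower ones in every bar but that of the fit of 2 diets with the array spread as covariate (46.6% higher), which was chosen after seeing the data.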

How the data were processed

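CD4+ T cell RNA (250 ng per sample, per the labels' protocols) was hybridised to Affymetrix whole-transcript rat gene arrays. The deposited values are on the log2 scale, made by the authors with RMA in Partek 6.0, per the submitters' processing notes. The values' range gave the log base. RMA evens out array intensities, so a shift of most genes would not be seen. Of 29214 probe set rows, 15310 carry 1 gene symbol, 323 several and 13581 none here. For each of 14506 genes the row with the highest mean over 17 arrays was kept, and the dimmest 25% (mean below 5.321) were left out, which left 10879. limma 3.58.1 in R 4.3.3 fitted all 3 diets (14 residual degrees of freedom), with Benjamini-Hochberg adjustment over the genes tested. In data simulated with changes of 1 and 0.5 on the log2 scale, 100 and 90 of 100 genes were recovered, and 11 of 10679 unchanged genes were called. The simulated noise was normal and independent between genes and arrays. Deviations that many genes of an array share, such as its spread, were not simulated, so these counts do not cover them.

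Named genes are the 20 largest rises, the falls, for each of 39 lists the members of lowest p (4 at most), and 30 fixed genes. The members and lists were chosen with earlier results of these data known. No scan date or other batch is given in the sources used here, and the number of arrays limits the precision. Alternatives covered normalization, the filter, probe choice, variance model, samples, covariates and each array left out. No 2 arrays were identical.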

Additional observations from a re-analysis of the deposited data

Results flagged for a closer look

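Single arrays stood apart from the rest of their diet, by Dixon's test at the 95% level, in 7 of 126 groups tested, and chance marks about 1 in 20 groups. Deprived replicate 5 had 8.633 for Ddit4, below the next deprived array at 8.830. Deprived replicate 2 was low for Ifng (5.060, next 5.804), Bag3 (7.836, next 7.961) and Ppp1r14d (6.348, next 6.472). Regular replicate 1 was high for Bcl6 (7.779, next 7.420) and Per1 (6.753, next 6.481), and regular replicate 2 for Hist3h2ba (7.502, next 7.180).

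In a limma fit of all 29214 rows, 124 of the 13904 rows without a single gene symbol were called between the deprived and regular diets (0.892%), 87 higher and 37 lower, against 0.732% of the rows with 1 symbol. These rows are unnamed here and enter no comparison above.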

How the results depend on the processing

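Every called gene named here kept its direction under every alternative run, while the number of calls (182 as reported) moved. It was 40 with quantile-normalized values, 84 with cyclic loess, 68 with the array spread as covariate, 889 with array weights, 466 with only the deprived and regular arrays, 301 without supplemented replicates 2 and 5, and 407 at a threshold of 0.1. It was 354 (165 higher, 189 lower) with the array spread as covariate in the fit of 2 diets, an alternative chosen after seeing the data. Leaving out 1 array at a time gave 33 to 244 calls, and the difference in array spread ran from 0.0194 to 0.0324. The cause was not tested. Of the 182 genes, 35 were also called under quantile normalization, 63 under cyclic loess and 44 with the spread as covariate. Of the 182, 20 passed under every setting that tested them. Timm10b is among these 20, with a mean of 5.49. It was not tested with the lowest 50% of genes left out, where the lowest mean was 6.434. Arrays with the same replicate number did not deviate together (correlations of -0.207, -0.00436, 0.0033, 0.0766 and 0.00183 for numbers 2 to 6 of the deprived and regular diets). The labels do not say what the numbers stand for, and these correlations cannot tell whether same-numbered samples were handled together. With the replicate block 145 genes were called (119 higher, 26 lower), 111 of them among the 182, and 164 in the fit of 2 diets. The smallest change called was 0.21 on the log2 scale, and the number of arrays limits what smaller changes can show.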

Other observations

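The groups here were picked after their values were seen, so their counts are descriptions. Over all genes tested, 1.49% were called higher and 0.184% lower. The SMC5/6 complex, a cohesin relative that acts in DNA repair and silencing, had 9 members tested, of which 4 rose (Slf1, Smc6, Smc5 and Nsmce3) and all 9 were above 0, with a median of 0.20, or 0.10 with the array spread as covariate. Slf1, which brings the complex to damaged DNA, rose by 0.37 (SE 0.06, limma adjusted p = 0.00505) and passed with any array left out, but not as the mean of its rows (adjusted p = 0.0637), since its other row on the array was at 0.15. Smc6 rose by 0.35 and Smc5 by 0.33 (limma adjusted p = 0.0255 and 0.0309), and their calls were lost without 6 and 9 of the arrays. The mean level of the 9 members ran from 8.52 to 8.57 in deprived and 8.24 to 8.40 in regular arrays.

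Of 18 thiol oxidoreductases and partners of the endoplasmic reticulum, 5 rose (Tmx4, Erp44, Ero1a, P4ha1 and Tmx1), with 17 above 0 and a median of 0.14, which was 0.09 after cyclic loess and 0.08 with the array spread as covariate. Of 22 nuclear transport receptors, 4 rose (Kpna4, Kpna1, Ranbp2 and Ipo7), with 20 above 0 and a median of 0.13, which was 0.07 after quantile normalization and 0.06 with the array spread as covariate. Kpna4, an importin alpha, rose by 0.41 (SE 0.07, limma adjusted p = 0.00574) and passed with any array left out, but not after quantile normalization (adjusted p = 0.0543). Of 11 cohesin and other SMC genes only Stag1 rose (0.34), with a median of 0.12 (0.07 with the array spread as covariate), and of 7 GIMAP GTPases, which keep naive T cells alive, only Gimap9 (0.39). Of 29 linker and core histones, 2 fell (H1f4 and Hist3h2ba), with a median of -0.05. Of 1052 olfactory receptor genes on the array 152 passed the filter, and 2 of them fell (Or1f28 and Or4p19), with a median of -0.03 that turned to 0.02 with the array spread as covariate.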
